A study of Mus musculus with 12 samples.

Results

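Lysosome genes were followed in mouse embryonic fibroblasts, 37 of them listed by name. They comprised 11 glycosidases and sulfatases, among them Glb1, 6 proteases, 7 genes of lipid handling, 6 genes of lysosomal membrane proteins, 4 proton pump subunits and 3 transcription factors. All 37 had a probe on the array (49 of its 39429 probes), and 36 were among the 14444 genes tested, out of 21367 named genes with a probe. Atp6v0d2, a proton pump subunit best known from osteoclasts, was not tested because it was well above background on only 2 arrays.

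The fibroblasts, primary connective tissue cells, came from C57BL/6 embryos at E12.5 to E13.5. Viral vectors brought in RASV12, an oncogenic form of RAS, shp53, a short hairpin RNA against the mouse p53 mRNA, or both in turn. The RASV12-first cells received RASV12 and then shp53, and the shp53-first cells received shp53 and then RASV12. The other groups received RASV12 alone or shp53 alone. All 4 groups thus carried at least 1 vector, with 3 arrays each, and fibroblasts without a vector were not analysed here. The design text calls the 3 arrays of a group independent biological replicates, and the labels name neither the embryos nor the interval between the vectors, so the p-values cover the spread between the arrays of a group and nothing beyond it. The series title names transformation with and without senescence beforehand as the question, and the comparison of the 2 orders of the vectors addresses it.

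Lysosomes are acidic organelles in which hydrolases break down proteins, lipids, sugars and nucleic acids delivered by endocytosis and autophagy, under a proton gradient kept up by the vacuolar ATPase. Glb1 encodes the lysosomal β-galactosidase, and its activity at a pH above the enzyme's optimum is the stain most used to recognise senescent cells, whose lysosomal content is enlarged. In human and mouse cells the related transcription factors TFEB, TFE3 and MITF activate many lysosome genes through E-box sequences in their promoters, and mTORC1 at the lysosomal surface keeps them out of the nucleus.

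Each level below is the log2 signal of the gene's probe relative to the 75th percentile of its array, so that a difference of 1 between groups is 2-fold, and levels of different genes are not comparable. Values are given for replicates 1, 2 and 3, and differences as log2 fold changes ± standard error from limma with the adjusted p over all genes tested. All 10 fibroblast markers, including Col1a1, Col1a2, Pdgfrb and Vim, were well above background on all 12 arrays, but some moved with the groups: in RASV12 against shp53 cells Col3a1 (-4.40), Col1a2 (-1.86), Lum (-1.80) and Pdgfrb (-1.69) fell and 0 of the 10 rose. Of the markers of other cell types, those that rose there were Krt18 of simple epithelia (3.24) and Cdh5 of endothelium. Cdh5 was not well above background in shp53 cells and was at least 3.59-fold higher. The other tested markers of these types, Krt19 (0.31), Kdr (-0.57) and Pecam1 (-0.17), were not called. Of the melanocyte markers, Mlana fell (-2.19), and Pmel (-0.93), Sox10 (-0.40) and Tyr (-0.18) were not called. The part of these shifts in the lysosome differences was not tested. Trp53, the shp53 target, read from -0.75 to -0.35 on the RASV12 arrays and from -4.14 to -3.06 on the 9 arrays of the groups with shp53. Hras, the one RAS gene looked at as a check of RASV12, was lower in RASV12-first than in shp53 cells (-0.78, adjusted p 0.0294) and was not called in shp53-first (-0.28, adjusted p 0.417) or RASV12 (0.53, adjusted p 0.155) against shp53 cells. The labels do not state which RAS gene the vector carried or whether this probe would detect it, so the RASV12 label could not be checked. In each group 2 arrays lay close together (r from 0.993 to 0.998 across genes) and 1 stood apart (r from 0.967 to 0.981). The arrays apart were replicate 1 of the RASV12-first and shp53-first groups and replicate 2 of the RASV12 and shp53 groups. The 18 tested of 19 macrophage markers summed to between 5.82 and 8.95 times the 75th percentile on RASV12-first arrays, between 8.90 and 12.4 on shp53-first arrays and between 9.49 and 21.1 on RASV12 arrays. On the shp53 arrays the sum was 145.4, 14.3 and 145.8, so that replicate 2 lay within the range of the RASV12 arrays. Fewer cells of a type and less RNA per cell cannot be told apart in these bulk samples.

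Of the 37 genes, 32 matched a RefSeq promoter window (assembly GRCm38.p6), from 250 bases before to 50 after a start site. Asah1, Atp6v0d2, Atp6v1h, Ctsb and Npc1 were not matched. The E-box CACGTG, a palindrome that reads the same on both strands, was present for 11 of the 32 (34.4%), against 8.09% of the 27025 genes with a window. The longer TCACGTGA, which contains it, was present for 5 of the 32 (15.6%), namely Atp6v0d1, Atp6v1a, Ctsa, Ctsd and Mcoln1, against 1.12% of all genes. The 250 bases before the start site are shown for Glb1, Ctsd, Ctsl, Lamp1 and Mcoln1, 5′ to 3′ on the gene's strand. CACGTG is in capitals. The protease genes Ctsd and Ctsl moved in opposite directions in cells with both vectors against shp53 cells. Lamp1 held the motif 4 times, and Mcoln1 was higher in RASV12-first cells than in the other groups.
Glb1, chr9:114400828-114401077, plus strand: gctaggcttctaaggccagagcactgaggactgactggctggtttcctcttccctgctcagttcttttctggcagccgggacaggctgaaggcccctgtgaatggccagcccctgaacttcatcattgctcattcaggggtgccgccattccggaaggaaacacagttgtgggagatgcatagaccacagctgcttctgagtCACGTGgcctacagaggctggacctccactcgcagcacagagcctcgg
Ctsd, chr7:142387828-142388077, minus strand: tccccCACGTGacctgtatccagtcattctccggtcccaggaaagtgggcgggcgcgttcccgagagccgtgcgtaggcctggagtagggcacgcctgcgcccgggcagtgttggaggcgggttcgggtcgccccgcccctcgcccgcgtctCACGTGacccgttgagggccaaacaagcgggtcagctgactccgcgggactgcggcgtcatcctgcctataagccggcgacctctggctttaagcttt
Ctsl, chr13:64370521-64370770, minus strand: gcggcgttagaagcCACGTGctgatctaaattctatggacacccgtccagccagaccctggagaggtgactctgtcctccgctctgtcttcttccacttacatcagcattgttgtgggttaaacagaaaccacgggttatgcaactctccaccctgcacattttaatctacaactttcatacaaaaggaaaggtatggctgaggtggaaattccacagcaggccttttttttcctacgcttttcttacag
Lamp1, chr8:13158911-13159160, plus strand: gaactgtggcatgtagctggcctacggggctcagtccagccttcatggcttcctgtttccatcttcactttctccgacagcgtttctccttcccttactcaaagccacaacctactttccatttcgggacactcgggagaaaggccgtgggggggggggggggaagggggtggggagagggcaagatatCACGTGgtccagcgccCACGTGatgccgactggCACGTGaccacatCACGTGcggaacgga
Mcoln1, chr8:3500269-3500518, plus strand: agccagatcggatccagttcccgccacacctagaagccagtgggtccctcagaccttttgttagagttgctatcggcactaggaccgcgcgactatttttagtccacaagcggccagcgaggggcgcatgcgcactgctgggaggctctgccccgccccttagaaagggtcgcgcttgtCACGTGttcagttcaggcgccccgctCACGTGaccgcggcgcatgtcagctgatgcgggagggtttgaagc

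Counted in bases from the start site, the motif began at -48 in Glb1, at -245 and -98 in Ctsd, at -236 in Ctsl and at -71 and -45 in Mcoln1. In Lamp1 the 4 copies began at -61, -45, -28 and -15. Such a match describes the letters of the window and is not a measured binding site. The median log2 fold change of the 11 genes with CACGTG, set beside that of the 21 matched and tested genes without it, was 0.12 and -0.05 in RASV12-first against shp53-first cells and 0.03 and -0.07 in RASV12 against shp53 cells. It was -0.18 with the motif and -0.69 without it in RASV12-first against shp53 cells, where 2 and 9 genes fell and 2 and 2 rose. It was -0.21 and -0.70 in shp53-first against shp53 cells, where 3 and 8 fell and 1 and 2 rose. Of all genes, 23.8% were called lower and 21.7% higher in the former comparison, and 20.3% and 17.3% in the latter. Against RASV12 cells the medians were -0.11 and -0.17 in RASV12-first and -0.26 and -0.17 in shp53-first cells. These differences between genes with and without the motif were not tested.

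The share of lysosome genes called was below that of all genes in RASV12-first against RASV12 cells and near it in the other comparisons. In RASV12-first against shp53-first cells 4 of the 36 tested genes rose and 1 fell (13.9%), where 15.8% of all genes were called (7.33% higher, 8.47% lower), and their median log2 fold change was 0.02, against 0.00 over all genes. In RASV12 against shp53 cells 2 rose and 6 fell (22.2%), where 27.1% of all genes were called (14.3% higher, 12.8% lower), with a median of -0.07 against 0.05.

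In RASV12-first against RASV12 cells 1 rose and 8 fell (25%), where 38.8% of all genes were called (17.2% higher, 21.7% lower), with a median of -0.17 against -0.07. In shp53-first against shp53 cells 3 rose and 12 fell (41.7%), where 37.6% of all genes were called (17.3% higher, 20.3% lower), with a median of -0.29 against 0.03. In RASV12-first against shp53 cells 4 rose and 13 fell (47.2%), where 45.5% were called (21.7% higher, 23.8% lower), with a median of -0.47 against 0.02. In shp53-first against RASV12 cells 1 rose and 8 fell (25%), where 25.4% were called (10.2% higher, 15.1% lower), with a median of -0.25 against -0.05. The share called lower was above that of all genes in shp53-first against shp53 (33.3%), RASV12-first against shp53 (36.1%) and shp53-first against RASV12 cells (22.2%). It was near that of all genes in RASV12 against shp53 (16.7%) and RASV12-first against RASV12 cells (22.2%), and below it between the orders (2.78%). With normexp background correction in place of the scanner software's own, the 6 comparisons in the order given called 0, 0, 2, 0, 1 and 0 of the 36 genes, where 0.45% to 5.68% of all genes were called. The comparisons share groups and are not independent of each other.

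The mean was highest in shp53 cells for 20 of the 36 genes, where shp53 cells held the highest mean for 28.0% of all genes, and it was lowest in RASV12-first cells for 14 and in shp53-first cells for 11, where these groups held the lowest mean for 29.3% and 19.2% of all genes. Of the 36 genes, 13 were called in no comparison, and 2, Asah1 and Fuca1, were called in 5 of the 6. The same count was not made over all genes, so these numbers do not set the members apart from other genes. For every member called, in each of the 6 comparisons, the groups did not overlap. The sign was therefore the same on the 3 slides, which held 1 array of each group. A call by a small p favours groups that do not overlap, so neither fact is separate support for the calls. Over all genes, called or not, groups did not overlap, higher and lower, for 15.9% and 16.1% of genes between the orders, 27.2% and 23.9% in RASV12 against shp53, 22.8% and 28.2% in RASV12-first against RASV12, 25.9% and 27.3% in shp53-first against shp53, 27.8% and 28.7% in RASV12-first against shp53, and 18.9% and 24.7% in shp53-first against RASV12 cells.

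**Figure D1:**
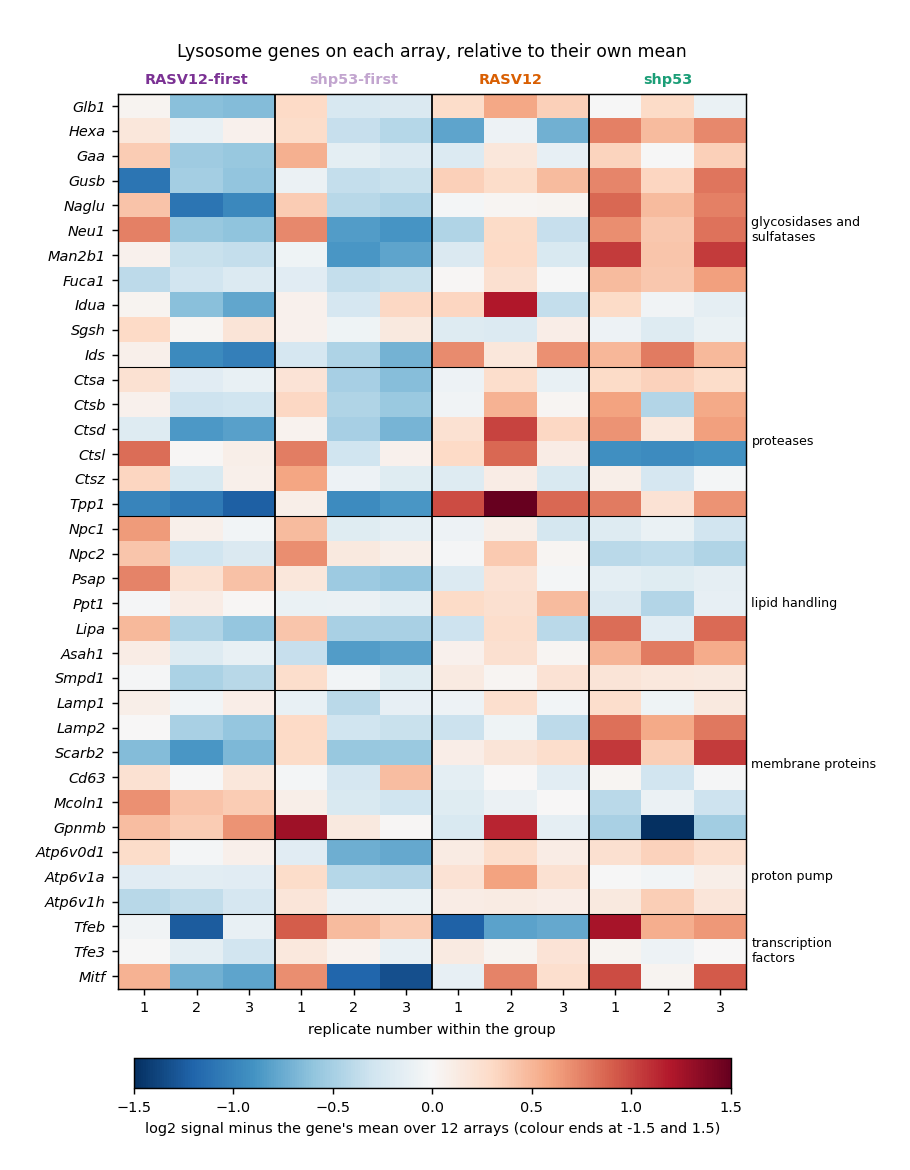
Heat map of the 36 tested lysosome genes (rows, by role) on the 12 arrays (columns, by group and replicate number). Colour gives the log2 signal minus the gene's mean over the 12 arrays, ending at -1.5 and 1.5. On replicates 2 and 3 of the RASV12-first and shp53-first groups 4 to 11 genes are above their mean (red), against 19 to 26 on the shp53 arrays, where Ctsl and Gpnmb are below theirs (blue).

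Of the glycosidases and sulfatases, Glb1 was lower in RASV12-first than in RASV12 cells and passed the test in no other comparison. Glb1 read 0.72, 0.04 and 0.02 on the RASV12-first arrays, 0.97, 0.42 and 0.45 on the shp53-first arrays, 0.94, 1.25 and 1.03 on the RASV12 arrays and 0.66, 0.95 and 0.57 on the shp53 arrays. The RASV12 arrays were high, with shp53-first replicate 1 and shp53 replicate 2 within their range, and RASV12-first replicates 2 and 3 were the lowest of the 12. From high to low the means ± SD were 1.07 ± 0.16 in RASV12, 0.73 ± 0.20 in shp53, 0.62 ± 0.31 in shp53-first and 0.26 ± 0.40 in RASV12-first cells (n = 3 each), and no neighbours in this order differed by the test. RASV12-first minus RASV12 was -0.82 ± 0.22 (adjusted p 0.0158), with -0.23, -1.21 and -1.01 on the 3 slides. This call was lost without RASV12 replicate 2 (adjusted p 0.0508), RASV12-first replicate 2 (0.0612) or RASV12-first replicate 3 (0.0623), and with the slide as a block in a fit of the 2 groups (0.0835). RASV12-first minus shp53, -0.47 and not called (adjusted p 0.110), passed without RASV12-first replicate 1 (-0.70, adjusted p 0.0151).

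RASV12 cells, the group with RAS and without shp53, had a Glb1 difference of 0.35 ± 0.22 from shp53 cells, with a 95% interval from -0.15 to 0.84 (adjusted p 0.287), and the groups overlapped only in that 1 shp53 array exceeded 1 RASV12 array. Across the 12 arrays the lysosome genes most like Glb1 by Pearson's r were Smpd1 (0.83), Tpp1 (0.80) and Ctsd (0.79), a description of arrays that share groups and scaling. Between the orders the difference in Glb1 was -0.36 ± 0.22, with an interval from -0.85 to 0.14 (adjusted p 0.334), although the sign was the same on the 3 slides, at -0.25, -0.38 and -0.44. Without the 4 arrays that stand apart, which leaves 2 arrays a group, Glb1 was higher in RASV12 than in shp53 cells, by 0.37 (adjusted p 0.00479), and lower in RASV12-first than in shp53-first cells, by -0.41 (adjusted p 0.00453). It was also lower in RASV12-first than in shp53 cells, by -0.59 (adjusted p 0.000393), and in shp53-first than in RASV12 cells, by -0.55 (adjusted p 0.000916). The remaining arrays are the close pairs, whose spread is small, and 58.5%, 48.0%, 72.3% and 58.2% of all genes were called in these 4 comparisons.

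Gusb, the β-glucuronidase, was lower in both groups with both vectors than in either group with 1 vector. It read 0.51, 1.10 and 1.01 in RASV12-first, 1.52, 1.25 and 1.27 in shp53-first, 1.96, 1.88 and 2.08 in RASV12 and 2.34, 1.93 and 2.40 in shp53 cells. No array with both vectors reached the lowest array with 1. RASV12-first minus RASV12 was -1.10 ± 0.19 (adjusted p 0.00128) and shp53-first minus shp53 was -0.88 ± 0.19 (adjusted p 0.00462), both kept when any 1 array was left out. Shp53-first minus RASV12 was -0.63 ± 0.19 (adjusted p 0.0331), lost without RASV12 replicate 1 or 3 (adjusted p 0.0867 and 0.109) or shp53-first replicate 2 or 3 (0.103 and 0.0924).

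Ids, the iduronate sulfatase of heparan and dermatan sulfate breakdown, followed the same order of groups. It read -0.61, -1.64 and -1.71 in RASV12-first, -0.93, -1.15 and -1.39 in shp53-first, 0.03, -0.51 and 0.01 in RASV12 and -0.19, 0.10 and -0.19 in shp53 cells. The arrays with both vectors all lay below those with 1. Ids fell by 1.16 in RASV12-first against RASV12 cells (adjusted p 0.00919) and by 1.07 in shp53-first against shp53 cells (adjusted p 0.0145), and the call in the second pair was lost without shp53-first replicate 3 (adjusted p 0.054).

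Hexa, the α subunit of β-hexosaminidase that clears gangliosides, and Man2b1, the lysosomal α-mannosidase, were lower in RASV12 than in shp53 cells. Hexa read 1.98, 2.69 and 2.05 in RASV12 cells and 3.53, 3.25 and 3.50 in shp53 cells, a difference of -1.18 ± 0.23 (adjusted p 0.00379). Man2b1 read 1.43, 1.95 and 1.42 in RASV12 cells and 2.70, 2.07 and 2.70 in shp53 cells, a difference of -0.89 ± 0.27 (adjusted p 0.0315). Within both genes RASV12 replicate 2 and shp53 replicate 2 lay closer to each other than the other pairs did, and the slide with these arrays gave -0.56 for Hexa and -0.12 for Man2b1, against -1.55 and -1.44 for Hexa and -1.27 and -1.28 for Man2b1 on the others. Shp53 replicate 2 was also the shp53 array with the low macrophage markers. The Man2b1 call was lost without shp53 replicate 1 or 3 (adjusted p 0.111 and 0.111) or RASV12 replicate 1 or 3 (0.104 and 0.104), and the Hexa call was kept.

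Fuca1, the α-fucosidase, was lower in every comparison but that of the 2 orders, where its difference was -0.00. It read 1.96, 2.06 and 2.14 in RASV12-first, 2.17, 1.99 and 2.01 in shp53-first, 2.36, 2.59 and 2.35 in RASV12 and 2.83, 2.75 and 2.96 in shp53 cells. The 3 levels of shp53, RASV12 and double-vector cells did not overlap, at -0.79 ± 0.12 for RASV12-first minus shp53 (adjusted p 0.000544). The smaller steps were less secure: RASV12 minus shp53 (-0.41) lost its call without shp53 replicate 1 or 3 (adjusted p 0.0807 and 0.122) or RASV12 replicate 1 or 3 (0.105 and 0.103). With the mean of the gene's probes in place of the brightest it was 0.95 (adjusted p 0.417), but a much dimmer probe had no value on RASV12 replicate 1. The brighter probe alone stood for the mean there, so the 0.95 compares unlike averages. Fitted singly, the probes gave -0.41 and -0.23.

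The steps of Fuca1 against RASV12 cells were also small, and RASV12-first minus RASV12 (-0.38) lost its call without any 1 of the 6 arrays (adjusted p from 0.052 to 0.0961). Shp53-first minus RASV12 (-0.37, adjusted p 0.0481) lost it without any but shp53-first replicate 1 (adjusted p from 0.0826 to 0.142). Naglu, the α-N-acetylglucosaminidase of heparan sulfate breakdown, read 0.60, -0.93 and -0.80 in RASV12-first and 1.02, 0.64 and 0.92 in shp53 cells, a difference of -1.23 ± 0.37 (adjusted p 0.0200). RASV12-first replicate 1 came near the shp53 range, and the Naglu call was lost without shp53 replicate 1 or 3 (adjusted p 0.0654 and 0.0574) or RASV12-first replicate 2 or 3 (0.0794 and 0.0768).

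Neu1, the lysosomal sialidase, Gaa, the acid α-glucosidase, Idua, the α-iduronidase, and Sgsh, the heparan N-sulfatase, were called in no comparison. For Gaa, Idua and Sgsh a dimmer probe gave another answer. The dimmer Sgsh probe was lower in RASV12 than in shp53 cells (-0.60, adjusted p 0.0130) where the brighter read 0.03, and the dimmer Gaa probe was higher in RASV12-first than in RASV12 cells (0.82, adjusted p 0.0402) where the brighter read -0.19. The dimmer Idua probe was lower in shp53-first than in shp53 cells (-1.11, adjusted p 0.0242) where the brighter read 0.00. It was also called lower in RASV12-first than in shp53 (-1.79, the brighter -0.49) and RASV12 cells (-1.02, the brighter -0.84). The dimmer Sgsh probe was also called lower in shp53-first (-0.90, the brighter 0.17) and RASV12-first (-0.89, the brighter 0.30) than in shp53 cells.

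**Figure D2:**
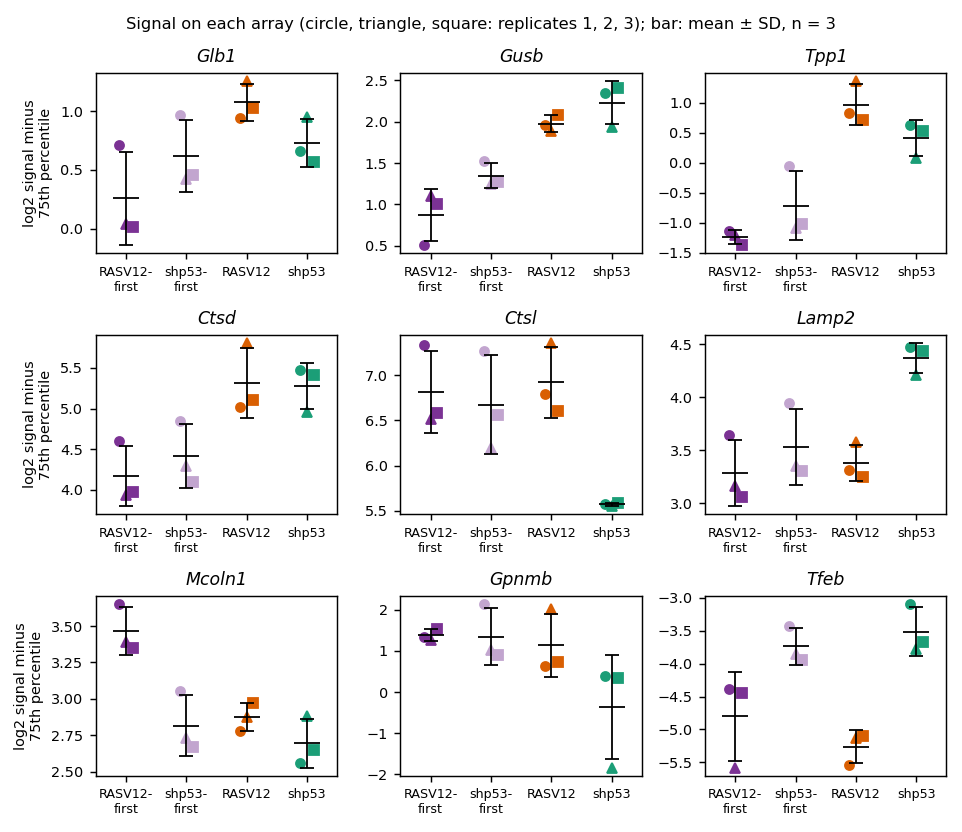
Log2 signal with the 75th percentile of each array at 0 (vertical axis, a separate range in each panel) of 9 lysosome genes in the 4 groups. Circles, triangles and squares are replicates 1, 2 and 3, and black bars give the mean ± SD (n = 3). Ctsl is low on all 3 shp53 arrays, Tpp1 and Ctsd are low in both double-vector groups, Mcoln1 is high in RASV12-first cells, and Tfeb is lowest in RASV12 cells.

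Among the proteases, Tpp1 and Ctsd were lower in double-vector cells and Ctsl was higher in every group with RASV12. Tpp1, tripeptidyl peptidase 1, read -1.14, -1.21 and -1.37 in RASV12-first, -0.06, -1.08 and -1.02 in shp53-first, 0.83, 1.35 and 0.71 in RASV12 and 0.63, 0.07 and 0.53 in shp53 cells. The RASV12-first arrays were the lowest of all, and shp53-first replicate 1 came close to shp53 replicate 2. Tpp1 fell by 2.21 ± 0.28 in RASV12-first against RASV12 cells (adjusted p 0.00024), the lowest log2 fold change of any member in the 6 comparisons, and by 1.13 ± 0.28 in shp53-first against shp53 cells (adjusted p 0.0106). These calls were kept when any 1 array was left out.

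Ctsd, the aspartic protease cathepsin D, read 4.60, 3.94 and 3.98 in RASV12-first, 4.85, 4.29 and 4.10 in shp53-first, 5.02, 5.81 and 5.11 in RASV12 and 5.47, 4.95 and 5.41 in shp53 cells. All double-vector arrays lay below all others, the closest being shp53-first replicate 1 and shp53 replicate 2. RASV12-first minus RASV12 was -1.14 ± 0.29 (adjusted p 0.0103), kept when any 1 array was left out. It was lost with the slide as a block in a fit of the 2 groups (adjusted p 0.0635). Shp53-first minus shp53 was -0.86 ± 0.29 (adjusted p 0.0365), a call lost without shp53 replicate 1 or 3 (adjusted p 0.117 and 0.108) or shp53-first replicate 2 or 3 (0.102 and 0.124).

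Ctsl, the cysteine protease cathepsin L, read 7.33, 6.52 and 6.58 in RASV12-first, 7.27, 6.20 and 6.56 in shp53-first, 6.79, 7.36 and 6.60 in RASV12 and 5.57, 5.55 and 5.59 in shp53 cells. The shp53 arrays lay close together and below the other 9, and the 3 groups with RASV12 overlapped. RASV12 minus shp53 was 1.35 ± 0.31 (adjusted p 0.00861), RASV12-first minus shp53 was 1.24 ± 0.31 (adjusted p 0.00797) and shp53-first minus shp53 was 1.10 ± 0.31 (adjusted p 0.0177). The last was lost without shp53 replicate 1 (adjusted p 0.0504). Leaving out shp53 replicates 1 and 3, the arrays with the high macrophage markers, gave 1.37, 1.26 and 1.12 in the same order. These values rest on 1 shp53 array. The part of macrophage RNA in the Ctsl differences was not tested.

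Ctsb, cathepsin B, was called in no comparison. It read 5.69, 5.31 and 5.32 in RASV12-first, 5.94, 5.17 and 5.06 in shp53-first, 5.57, 6.15 and 5.65 in RASV12 and 6.23, 5.19 and 6.20 in shp53 cells. All groups overlapped, and shp53 replicate 2, with low macrophage markers, was 1 unit below the other shp53 arrays. Ctsz, cathepsin Z, was called in none either. Ctsa, the protective protein that forms a complex with β-galactosidase and sialidase, fell by 0.61 ± 0.22 in shp53-first against shp53 cells (adjusted p 0.0478), and that call was lost when any 1 array but shp53-first replicate 1 was left out (adjusted p from 0.0969 to 0.166). A dimmer Ctsa probe was also called lower in RASV12-first than in shp53 cells (-1.10), where the brighter read -0.32.

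Of the genes of lipid handling, Psap and Asah1 were higher in RASV12-first than in shp53-first cells. Psap, the precursor of the saposins that present sphingolipids to their hydrolases, read 4.75, 4.23 and 4.45 in RASV12-first, 4.18, 3.46 and 3.43 in shp53-first, 3.79, 4.22 and 3.98 in RASV12 and 3.86, 3.82 and 3.87 in shp53 cells. The RASV12-first arrays were the highest and shp53-first replicates 2 and 3 the lowest. RASV12-first minus shp53-first was 0.79 ± 0.22 (adjusted p 0.0340), and it lost its call without shp53-first replicate 2 or 3 (adjusted p 0.118 and 0.120) or RASV12-first replicate 1 or 3 (0.0779 and 0.0837).

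Asah1, acid ceramidase, read 2.24, 1.93 and 2.01 in RASV12-first, 1.78, 1.28 and 1.32 in shp53-first, 2.18, 2.36 and 2.15 in RASV12 and 2.63, 2.90 and 2.68 in shp53 cells. The shp53-first arrays were the lowest and the shp53 arrays the highest, with no overlap between either and the rest. RASV12-first minus shp53-first was 0.60 ± 0.16 (adjusted p 0.0327), lost when any 1 array but shp53-first replicate 1 was left out (adjusted p from 0.0552 to 0.117). Shp53-first minus shp53 was -1.28 ± 0.16 (adjusted p 0.000222), kept when any 1 array was left out, and RASV12 minus shp53 was -0.50 ± 0.16 (adjusted p 0.0441), lost when any 1 was (adjusted p from 0.0507 to 0.127).

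Ppt1, palmitoyl-protein thioesterase 1, read 0.30, 0.25 and 0.48 in RASV12 cells and -0.21, -0.43 and -0.11 in shp53 cells. The groups did not overlap, at 0.60 ± 0.12 (adjusted p 0.00483), and the call was kept when any 1 array was left out. Npc2, which hands cholesterol to the membrane protein Npc1, rose by 0.72 ± 0.22 in shp53-first against shp53 cells (adjusted p 0.0282), a call lost without any 1 of the shp53 arrays or shp53-first replicate 1 (adjusted p from 0.0516 to 0.0805). Smpd1, acid sphingomyelinase, fell by 0.47 ± 0.16 in RASV12-first against shp53 cells (adjusted p 0.0331), lost when any 1 array but RASV12-first replicate 1 was left out (adjusted p from 0.0633 to 0.118). Npc1 and Lipa, the acid lipase, were called in no comparison.

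Among the membrane proteins, Mcoln1 was higher in RASV12-first cells than in every other group. Mcoln1, a calcium-permeable channel also called TRPML1, read 3.65, 3.39 and 3.35 in RASV12-first, 3.05, 2.73 and 2.67 in shp53-first, 2.78, 2.87 and 2.97 in RASV12 and 2.56, 2.88 and 2.65 in shp53 cells. The lowest RASV12-first array exceeded all the others. RASV12-first minus shp53-first was 0.65 ± 0.15 (adjusted p 0.0159), with 0.60, 0.66 and 0.68 on the 3 slides, and it lost its call without shp53-first replicate 2 or 3 (adjusted p 0.0603 and 0.0627). RASV12-first minus RASV12 was 0.59 ± 0.15 (adjusted p 0.0115) and RASV12-first minus shp53 was 0.77 ± 0.15 (adjusted p 0.00221), both kept when any 1 array was left out. The call against RASV12 cells was lost with the slide as a block in a fit of the 2 groups (adjusted p 0.0942). With normexp background correction the difference from RASV12 cells was -0.03.

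Lamp1 and Lamp2, the most abundant glycoproteins of the lysosomal membrane, differed from each other. Lamp1 read 6.44, 6.31 and 6.45 in RASV12-first, 6.23, 5.94 and 6.22 in shp53-first, 6.27, 6.59 and 6.30 in RASV12 and 6.61, 6.28 and 6.50 in shp53 cells, and it was called in no comparison. Lamp2 read 3.64, 3.16 and 3.06 in RASV12-first, 3.94, 3.35 and 3.31 in shp53-first, 3.32, 3.58 and 3.25 in RASV12 and 4.47, 4.21 and 4.44 in shp53 cells. The 3 shp53 arrays lay above the other 9. Lamp2 fell by 0.99 ± 0.21 in RASV12 (adjusted p 0.00606), by 0.84 ± 0.21 in shp53-first (adjusted p 0.0112) and by 1.08 ± 0.21 in RASV12-first cells (adjusted p 0.00213), each against shp53 cells, and kept these calls when any 1 array was left out. A dimmer Lamp2 probe read -0.31, 0.02 and -0.47 in the same 3 comparisons and was not called.

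Scarb2, the receptor that carries glucocerebrosidase to the lysosome, read -1.14, -1.36 and -1.16 in RASV12-first, -0.19, -1.05 and -1.04 in shp53-first, -0.38, -0.30 and -0.23 in RASV12 and 0.57, -0.11 and 0.57 in shp53 cells. The RASV12-first arrays were the lowest of the 12, and the shp53 arrays were the highest. RASV12-first minus shp53 was -1.56 ± 0.25 (adjusted p 0.000683), kept when any 1 array was left out. RASV12-first minus RASV12 was -0.92 ± 0.25 (adjusted p 0.0161), lost without RASV12 replicate 3 (adjusted p 0.0513) or RASV12-first replicate 2 (0.0558).

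Gpnmb, a glycoprotein of melanosomes and macrophage lysosomes, read 1.34, 1.26 and 1.55 in RASV12-first, 2.14, 1.02 and 0.89 in shp53-first, 0.64, 2.02 and 0.74 in RASV12 and 0.39, -1.84 and 0.35 in shp53 cells. The shp53 arrays were the lowest, shp53 replicate 2 by over 2 units. RASV12-first minus shp53 was 1.74 ± 0.60 (adjusted p 0.0367), with 0.94, 3.10 and 1.19 on the 3 slides, and shp53-first minus shp53 was 1.71 ± 0.60 (adjusted p 0.0462), with 1.75, 2.85 and 0.54. Without shp53 replicate 2 both calls were lost (adjusted p 0.100 and 0.122), as they were without any 1 of the double-vector arrays (adjusted p from 0.0612 to 0.131). Cd63, a tetraspanin, was called in no comparison.

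**Figure D3:**
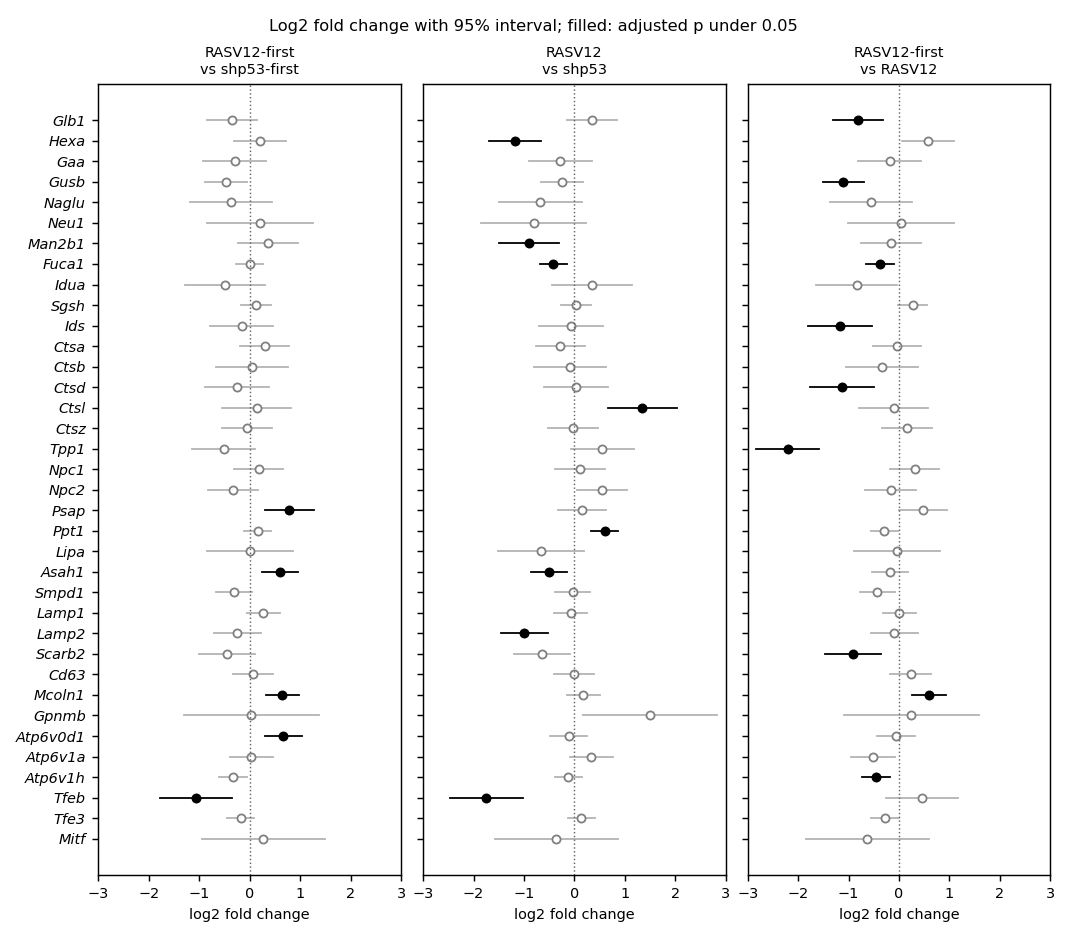
Log2 fold change of each tested lysosome gene (points) with its 95% interval from limma (bars) in 3 comparisons. Filled points had an adjusted p under 0.05. Psap, Asah1, Mcoln1 and Atp6v0d1 lie above 0 and Tfeb below it between the orders, and Tpp1 lies farthest below 0 in RASV12-first against RASV12 cells.

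Of the proton pump genes, Atp6v0d1 was lower in shp53-first cells than in the other 3 groups. Atp6v0d1, the widely expressed d subunit of the membrane sector, read 2.56, 2.26 and 2.35 in RASV12-first, 2.11, 1.56 and 1.52 in shp53-first, 2.41, 2.55 and 2.39 in RASV12 and 2.52, 2.63 and 2.54 in shp53 cells. The highest shp53-first array lay below all the others. RASV12-first minus shp53-first was 0.67 ± 0.17 (adjusted p 0.0222), lost without shp53-first replicate 2 or 3 (adjusted p 0.0844 and 0.0849) or RASV12-first replicate 3 (0.0582). Shp53-first minus shp53 was -0.84 ± 0.17 (adjusted p 0.00325), kept when any 1 array was left out. It was lost with the slide as a block in a fit of the 2 groups (adjusted p 0.0517).

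Atp6v1h, a regulatory subunit of the catalytic sector, read -0.35, -0.30 and -0.19 in RASV12-first, 0.24, -0.03 and -0.04 in shp53-first, 0.17, 0.19 and 0.16 in RASV12 and 0.20, 0.43 and 0.24 in shp53 cells. The RASV12-first arrays were the lowest of the 12. RASV12-first minus RASV12 was -0.46 ± 0.12 (adjusted p 0.0146) and RASV12-first minus shp53 was -0.57 ± 0.12 (adjusted p 0.00358), both kept when any 1 array was left out. With the slide as a block in a fit of the 2 groups both calls were lost (adjusted p 0.128 and 0.0597).

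Atp6v1a, the catalytic A subunit, read 2.91, 2.92 and 2.91 in RASV12-first, 3.36, 2.65 and 2.64 in shp53-first, 3.29, 3.68 and 3.30 in RASV12 and 3.07, 3.03 and 3.16 in shp53 cells. It was called in no comparison, and the RASV12 arrays were the highest except for shp53-first replicate 1. Atp6v0d2 read -7.63, -7.71 and -8.15 in RASV12-first, -8.10, -8.47 and -5.19 in shp53-first, -7.09, -6.59 and -8.10 in RASV12 and -4.27, -6.63 and -4.05 in shp53 cells. It was well above background only on shp53 replicates 1 and 3, the arrays with the high macrophage markers.

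Of the transcription factors, Tfeb differed between groups and Tfe3 and Mitf were called in no comparison. Tfeb read -4.38, -5.58 and -4.44 in RASV12-first, -3.42, -3.85 and -3.94 in shp53-first, -5.54, -5.14 and -5.10 in RASV12 and -3.10, -3.78 and -3.67 in shp53 cells. The groups in which RASV12 came first or alone lay below the other 2 with no overlap, and the probe was dim but well above background on all 12 arrays. RASV12 minus shp53 was -1.74 ± 0.32 (adjusted p 0.00273) and shp53-first minus RASV12 was 1.52 ± 0.32 (adjusted p 0.0075), both kept when any 1 array was left out. RASV12-first minus shp53-first was -1.06 ± 0.32 (adjusted p 0.0493), kept only without RASV12-first replicate 1 (otherwise adjusted p from 0.0578 to 0.128). Without RASV12-first replicate 2 it was -0.67, and with normexp background correction it was 0.40.

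Tfe3 read 3.16, 3.03 and 2.88 in RASV12-first, 3.33, 3.23 and 3.06 in shp53-first, 3.30, 3.22 and 3.37 in RASV12 and 3.20, 3.09 and 3.17 in shp53 cells. The RASV12 arrays lay above the RASV12-first and shp53 arrays and overlapped the shp53-first arrays. A dimmer Tfe3 probe was called higher in shp53-first than in shp53 cells (0.33), where the brighter read 0.05. Mitf read 0.72, -0.53 and -0.59 in RASV12-first, 0.90, -0.99 and -1.12 in shp53-first, 0.08, 0.94 and 0.45 in RASV12 and 1.18, 0.24 and 1.12 in shp53 cells. The arrays within the double-vector groups differed by more than the group means did, with replicate 1 high in both.

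The 4 genes called higher and the 1 called lower in RASV12-first against shp53-first cells depended on the arrays used. Leaving out shp53-first replicate 2 or 3 left 0 of the 5 calls, leaving out RASV12-first replicate 3 left 1, and replicate 1 or 2 of that group left 3. Same-numbered arrays of these groups moved together, and with the replicate as a block all 5 calls stood in the fit of 12 arrays, Tfeb at an adjusted p of 0.0479, while in a fit of the 2 groups alone Tfeb was lost (0.0693). In RASV12 against shp53 cells, leaving out replicate 1 or 3 of either group left 5 of the 8 calls. In shp53-first against RASV12 cells, RASV12 replicate 1 or 3 and shp53-first replicate 2 or 3 each left 4 of the 9 calls when left out, and without shp53-first replicate 1 there were 15 calls.

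**Figure D4:**
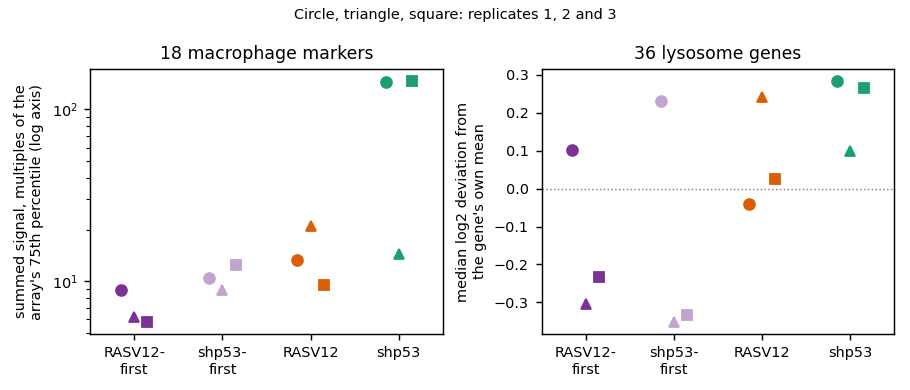
Left, summed signal of 18 macrophage markers on each array, in multiples of the array's 75th percentile on a log axis; right, median log2 deviation of the 36 tested lysosome genes from their own means over the 12 arrays. Circles, triangles and squares are replicates 1, 2 and 3. The macrophage sum is about 145 on 2 shp53 arrays and 21.1 or below on the other 10, while the lysosome genes are lowest on replicates 2 and 3 of both double-vector groups.

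Array by array, the lysosome genes' median deviation from their own means was 0.10, -0.30 and -0.23 in RASV12-first, 0.23, -0.35 and -0.33 in shp53-first, -0.04, 0.24 and 0.03 in RASV12 and 0.28, 0.10 and 0.27 in shp53 cells. Over all genes it lay between -0.05 and 0.05 on every array. The double-vector arrays that stand apart were thus on the side of the single-vector arrays, and RASV12 replicate 2, also apart, was the highest of its group. Of the 36 genes, 4 and 7 were above their own mean on shp53-first replicates 2 and 3, against 27 on replicate 1.

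The macrophage markers moved with the comparisons against shp53 cells. Of the 18 tested, 15 fell in RASV12, 16 in shp53-first and 16 in RASV12-first cells against shp53 cells, and 0 rose. Of all genes, 12.8%, 20.3% and 23.8% were called lower in these 3 comparisons. Of the defining markers, Adgre1 was well above background on no double-vector array, Ptprc on no array of a group with RASV12, C1qa on 1 RASV12-first and 1 RASV12 array, and Csf1r on all 12. Csf1r read -1.27, -1.35 and -1.56 in RASV12-first, -2.29, -1.34 and -0.97 in shp53-first, 0.09, -0.61 and 0.02 in RASV12 and 4.45, 0.75 and 4.48 in shp53 cells. When shp53 replicates 1 and 3 were both left out, an alternative chosen after the data were seen that rests on 1 shp53 array assumed to vary like the other groups, 2 members were called in RASV12 (2 higher), 3 in shp53-first (1 higher, 2 lower) and 6 in RASV12-first cells (1 higher, 5 lower).

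Gusb, Scarb2, Fuca1, Asah1 and Atp6v1h remained lower in RASV12-first than in shp53 cells in that fit. Gpnmb was among the members higher in it, by 2.97 in RASV12, 3.19 in shp53-first and 3.22 in RASV12-first cells. These Gpnmb values rest on its reading of -1.84 on shp53 replicate 2, its lowest array. Of all genes 11.7%, 16.0% and 21.0% were called in these 3 comparisons. In the comparison of the orders, which does not involve shp53 cells, 1 of the 18 macrophage markers was called, where 15.8% of all genes were. The part of macrophage RNA in the lysosome genes' differences was not tested further, nor was that of the arrays that stand apart.

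Of the other genes of lysosomes, 27 hydrolases and cofactors were tested. Against shp53 cells, 1 rose and 6 fell in RASV12 and 11 fell in shp53-first cells, and between the orders 4 rose and 1 fell. Of all genes, 27.1%, 37.6% and 15.8% were called in these 3 comparisons. Ctsk, the collagen-degrading cathepsin K, read 2.88, 3.23 and 3.22 in RASV12-first and 1.70, 0.69 and 0.70 in shp53-first cells, a difference of 2.08 ± 0.30 (adjusted p 0.00104), and it fell by 1.42 in RASV12 against shp53 cells (adjusted p 0.00533). Acp5, tartrate-resistant acid phosphatase, read 2.76, 1.82 and 1.81 in RASV12-first and 1.31, -0.20 and -0.41 in shp53-first cells, a difference of 1.90 ± 0.46 (adjusted p 0.0195). Neither gene overlapped between the orders. Both are known from osteoclasts. Of 5 osteoclast markers, Oscar and Tnfrsf11a were well above background on all 12 arrays, Ocstamp on 2 or 3 arrays of each group and Calcr and Dcstamp on none, and 0 of the 3 tested were called in any comparison.

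Aga, the aspartylglucosaminidase of glycoprotein breakdown, was higher by 1.20 ± 0.19 in RASV12-first than in shp53-first cells (adjusted p 0.00194) and by 0.95 ± 0.19 in RASV12 than in shp53 cells (adjusted p 0.00414). Ctsc, the dipeptidyl peptidase cathepsin C, fell by 1.74 ± 0.36 between the orders (adjusted p 0.00895) and by 1.84 ± 0.36 in RASV12 against shp53 cells (adjusted p 0.00380). Sumf1, which activates the sulfatases, fell by 0.72 in RASV12 against shp53 cells (adjusted p 0.0042). Ctss, a cathepsin of antigen-presenting cells named here after its values were seen, was well above background on no double-vector array and read -2.00, -0.64 and -1.88 in RASV12 cells and 4.12, 0.09 and 4.16 in shp53 cells. It was thus high on the shp53 arrays with the high macrophage markers.

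Of 17 other membrane proteins and transporters, 1 rose and 2 fell between the orders, and 2 rose and 3 fell in RASV12 against shp53 cells. The shares of all genes called, 15.8% and 27.1%, also stand beside the counts of the lists that follow. Cd164, a sialomucin of endosomes and lysosomes, was higher by 1.13 ± 0.23 in RASV12-first than in shp53-first cells (adjusted p 0.00736), while Abca2, a lipid transporter, was lower by -0.92 (adjusted p 0.0055) and Slc15a4, a histidine and peptide transporter, by -0.67 (adjusted p 0.0220). In RASV12 against shp53 cells Tmem192 (0.52) and Lamp3 (0.68) rose, and Ctns, the cystine transporter (-0.84), and Slc38a9, an arginine sensor of mTORC1 (-0.99), were among those that fell. Of 14 other proton pump subunits, 0 were called in either comparison. Of 10 genes of sorting to the lysosome, 1 rose in each, Gga1, a sorting adaptor, by 0.57 between the orders (adjusted p 0.0306) and Gnptab, which makes the mannose 6-phosphate tag, by 0.79 in RASV12 against shp53 cells (adjusted p 0.0207). Of 15 autophagy genes, 1 rose between the orders, Atg5, of the conjugation machinery, by 0.53 ± 0.11 (adjusted p 0.00822), and 0 were called in RASV12 against shp53 cells.

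Of 14 genes of mTORC1 at the lysosome, 1 rose between the orders, and 2 rose and 1 fell in RASV12 against shp53 cells (15.8% and 27.1% of all genes called). Mtor itself was higher by 1.07 ± 0.16 in RASV12 than in shp53 cells (adjusted p 0.000682). Lamtor3, a scaffold that holds mTORC1 at the lysosome, was lower by -0.54 ± 0.13 in RASV12 than in shp53 cells (adjusted p 0.0097) and higher by 0.46 ± 0.13 in RASV12-first than in shp53-first cells (adjusted p 0.0344).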

How the data were processed

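RNA (100 ng per array) from 12 samples was hybridised to 1-colour Agilent arrays. The authors deposited 1 scanner table per array with intensity values, background-subtracted and detrended by Agilent Feature Extraction (version 11.5.1.1 per the file headers, 10.7.3.1 per the submitters' processing notes). The deposited flags of each spot, coded by number, mark controls, outliers, saturation and signal well above background. The authors also deposited a log2 table, whose method is not given in the sources used here. It correlated with the values rebuilt here at r from 0.990 to 0.9998, its column medians lay from -0.00674 to 0.166, and values were relative to the median of the shp53 arrays. It served as an alternative only.

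Control spots and outlier flags were left out, each array's 75th percentile was subtracted from log2 signal, and spots of a probe were averaged. A probe was kept where every array of some group read it as well above background (23899 of 39429). Accessions gave symbols for 28330 probes through RefSeq, and the brightest kept probe stood for a gene. No spot was saturated, and 56.6% to 62.4% of spots were well above background. limma 3.58.1 (R 4.3.3) fitted all 12 arrays with 1 mean per group, 6 comparisons and Benjamini-Hochberg adjustment over 14444 genes, with 0.05 as threshold. The number of arrays limits the precision, and an exact two-sided permutation test of 3 against 3 arrays cannot go below 0.1. The code was tested on simulated data. Other backgrounds, scalings, filters, probe rules, blocks, thresholds and left-out arrays were tried.

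Each slide held 1 array of each group, and its number is the replicate number in the labels. Same-numbered RASV12-first and shp53-first arrays deviated together (r 0.598, 0.447 and 0.320 across genes), so the numbers were taken to pair these samples. The pairing is inferred from this check and the slides. Deviations from a group's mean cancel out and replicate 1 stood apart in both groups, so these values are not independent of each other. Paired samples and a shared slide cannot be told apart here. In the other comparisons same-numbered arrays also share a slide, but not every pair deviated together by over 0.1, so they were not taken as paired.

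The members and lists were chosen with earlier results of these data known. Named were, with values, a fixed set of members, up to 6 called members with the highest and the lowest log2 fold change per comparison, members whose probes disagree, and up to 4 called genes of each other list with the smallest adjusted p in RASV12 against shp53 and in RASV12-first against shp53-first cells. Promoter windows came from RefSeq (GRCm38.p6), while the file headers name build mm9, from which no coordinate is given.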

Additional observations from a re-analysis of the deposited data

How the results depend on the processing

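Over 68 results on single lysosome genes and 1403 values under other settings, 1038 kept direction and side of the threshold, 356 kept direction but lost the call, 5 gained one and 4 reversed. Counts of called lysosome genes are given in the order RASV12-first against shp53-first (5), RASV12 against shp53 (8), shp53-first against shp53 (15), RASV12-first against RASV12 (9), RASV12-first against shp53 (17) and shp53-first against RASV12 (9). With normexp background correction they were 0, 0, 0, 2, 1 and 0, where 0.45% to 5.68% of all genes were called. The reversed values under it were Tfeb between the orders (0.40), Glb1 in shp53-first against shp53 (0.0185) and Mcoln1 in RASV12-first against RASV12 (-0.0276). When 77 extreme local backgrounds were replaced, a setting chosen after seeing the data, the first 2 comparisons gave 2 and 5 (8.89% and 20.8% of all genes). Averaging the closest arrays gave 0, 1, 1, 2, 4 and 0, where 2.93%, 7.12%, 11.8%, 10.3%, 17.2% and 2.71% of all genes were called. Leaving out the 4 arrays that stand apart gave 19, 22, 26, 22, 30 and 22, where 48.0%, 58.5%, 68.4%, 66.8%, 72.3% and 58.2% were called. An adjusted p under 0.01 gave 0, 5, 6, 3 and, in the last comparison, 3, and a 2-fold minimum gave 1, 3, 7, 4, 11 and 3. Without a filter on dim probes the first 2 and the last gave 2, 5 and 5, where 8.51%, 15.9% and 13.9% of all genes were called. Between the orders, quantile scaling gave 2 (15.8% of all genes) and a fit of the 2 groups alone gave 0 (9.56%). The mean of a gene's probes gave 5 in RASV12 against shp53, where 27.3% of all genes were called. Fuca1 was reversed there (0.95), with the dimmer probe's value missing on RASV12 replicate 1. Without shp53 replicates 1 and 3, chosen after seeing the data, the comparisons against shp53 gave 2, 3 and 6. Leaving out 1 array gave 0 to 4, 5 to 8, 10 to 17, 7 to 12, 13 to 19 and 4 to 15. With the replicate block the counts were 5, 7, 15, 9, 16 and 7, and with the block in a fit of the 2 groups they were 4, 7, 11, 4, 13 and 1. Between the orders, where the numbers were taken to pair the samples, the fit of the 2 groups lost Tfeb. Centring on the array median moved the median of all genes by 0.01 to 0.34, so a member counts as changed there relative to that shift. Beyond the value missing for Fuca1, the cause of these changes was not tested. Signal over background limited Atp6v0d2 alone among the members.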
